A study of Homo sapiens with 6 samples.

Results

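HCT116, an established line of human colorectal cancer, had been given the siRNA siLINC01534-1, and these libraries were compared with libraries of parent HCT116 cells, 2 libraries in each group and 4 of the 6 in the series. The siRNA is directed at the long noncoding RNA LINC01534. The other 2 libraries, of HCT116 cells given siLINC01534-2, an siRNA directed at another stretch of the same RNA, are used where a difference particular to siLINC01534-1 is in question. Levels were read as FPKM, fragments scaled to transcript length and library size, for 26255 gene symbols. Of these, 11977 had a mean of at least 1 FPKM over the 6 libraries and did not carry the symbol of a short RNA gene (MIR, SNORD, SNORA, SCARNA or RNU), and these 11977 genes are described here. Another 226 short RNA symbols reached that mean and were set aside, 12031 symbols of other genes lay below it, and the rest were short RNA symbols below it. No source describes a transfection of the parent cells, and none of the 6 libraries of the series is labelled as a negative control siRNA. Transfection and the siRNA itself therefore cannot be told apart in a difference from parent. All libraries came from the same cell line, and nothing in the labels says that the 2 libraries of a group came from separate cultures, so the p-values measure the spread between these libraries, which may be technical.

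An siRNA is a short duplex. One strand, the guide, is loaded into an Argonaute protein and leads to cleavage of RNAs that pair with it along its length. Bases 2 to 8 of a guide, the seed, can also pair with the 3′ untranslated regions (UTRs) of other mRNAs, as the seed of a microRNA does, and lower their levels. The endoplasmic reticulum (ER) answers misfolded protein through the sensors PERK, IRE1α and ATF6α. PERK phosphorylates the initiation factor eIF2α, which slows translation at large and favours translation of the transcription factor ATF4, while IRE1α and ATF6α raise the genes of ER chaperones and of the degradation of misfolded ER proteins.

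The targeted RNA was examined first. LINC01534 was listed at 0.285 and 0.571 FPKM in the parent libraries and at 0 and 0.283 FPKM with siLINC01534-1. It was at 0.6603 and 0.551 FPKM with siLINC01534-2. In whole reads, as the steps between low values give them, these levels were 1 and 2 reads in parent, 0 and 1 read with siLINC01534-1, and 2 and 2 reads with siLINC01534-2. At this depth a difference in LINC01534 was not detectable, so groups go by the names on the labels. On GRCh37 (hg19) the site of siLINC01534-1 lies at chr19:37177640-37177658 on the minus strand, in an exon of all 6 annotated transcripts of LINC01534, which the annotation lists as ZNF567-DT. Of the 15 largest decreases with this siRNA, 12 had the same 7 letters, GAATAAA, in the 3′ UTR. The site in LINC01534 is shown with the sites of those of the 12 that had GAATAAA at only 1 place there. These letters are the complement of the seed and stand in capitals. The base after them lies opposite the first base of the guide.
LINC01534: atcgagtggtgGAATAAAa
RTN4: aggcactggtgGAATAAAa
MYBL2: tttttttggaaGAATAAAa
PRR11: ataatcactgaGAATAAAg
AMZ2: atacttcattgGAATAAAc
CEP55: aaatgagaaaaGAATAAAa
HSPD1: tttgtatttttGAATAAAa
PCBD1: tacactaatttGAATAAAc
The site in RTN4, at chr2:55200019-55200037 on the minus strand, shares 15 of its 19 bases with the site in LINC01534, and 13 of them without interruption up to its end. Of 3861 sites in the 3′ UTRs of tested genes, 3 had 13 uninterrupted bases, the most that any had. The other sites with 13 lay in FAM83F and ELP4.

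With siLINC01534-1, 2871 of 11977 genes were higher than in parent (24%) and 3170 were lower (26.5%) at an adjusted p under 0.05. Most differences were small, as the median size among the genes that passed was 0.39 on the log2 scale, with quartiles of 0.27 and 0.57, and the median log2 difference of all 11977 genes was 0.0020. All 6041 genes that passed had groups that did not overlap, as did 76.7% of all genes tested. The ratio of the group means was over 2 for 262 genes and under 0.5 for 318 genes, together 4.84% of the genes tested, and 248 and 308 of these also passed the test. With siLINC01534-2, which is set against the same parent libraries, 1647 genes were higher and 1698 lower, and 145 and 64 lay past those ratios.

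**Figure D1:**
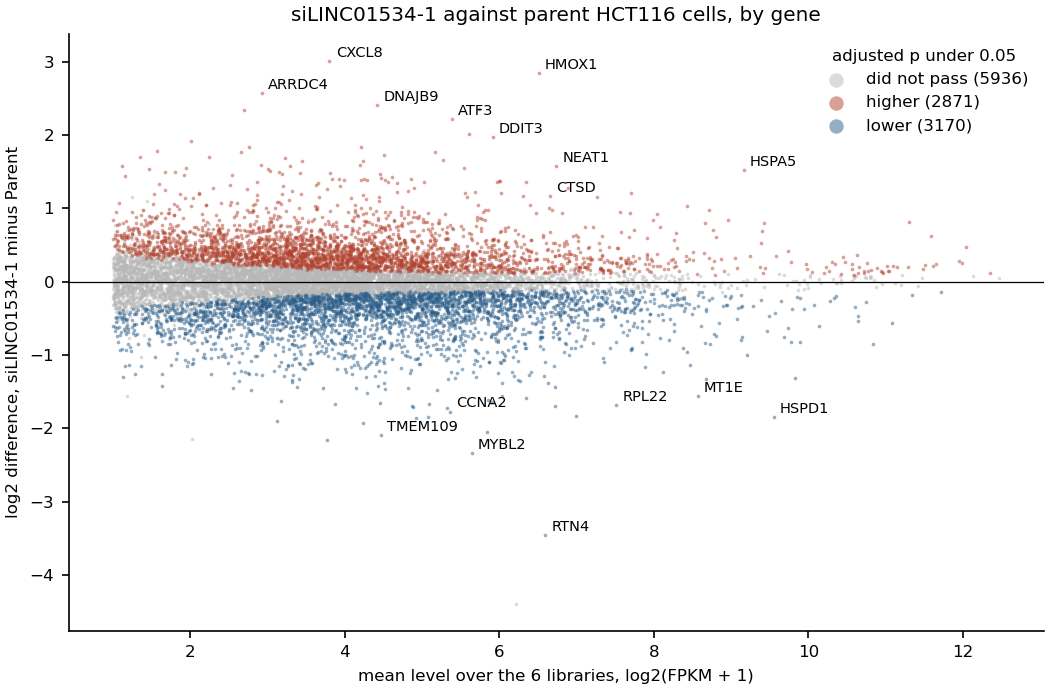
Each point is 1 of 11977 genes, placed by its mean level over the 6 libraries, log2(FPKM + 1), and by its log2 difference between siLINC01534-1 and Parent. The 2871 genes that were higher and the 3170 that were lower at an adjusted p under 0.05 are in colour. RTN4 lies lowest of the genes that passed, and the lowest grey point is VTRNA1-2, a vault RNA gene that did not pass.

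Estimated depth ran from 8690000 to 10400000 reads over the 6 libraries, and from 16513 to 16903 genes had an FPKM above 0. Libraries of a group had a median absolute difference of 0.073 to 0.076 on the log2 scale, and their counts differed by more than counting noise. Of 10 markers of colon epithelium, 6 reached a mean of 1 FPKM and 4 did not. With siLINC01534-1, 0 of the 6 were higher and 3 lower. Keratins among them were high, as KRT8 reached 1686 and 1730.5 FPKM in parent. It was 1349 and 1343 FPKM with siLINC01534-1 and passed as lower (log2 difference -0.34 ± 0.043, SE, adjusted p = 0.00027). Of the markers of other cell types, 2 of 10 fibroblast genes, 2 of 10 leukocyte genes and 1 of 8 endothelial genes reached a mean of 1 FPKM. The highest of these, ACTA2, a smooth muscle actin, was at 3.73 and 3.65 FPKM in parent and at 9.04 and 7.17 FPKM with siLINC01534-1. The 10 fibroblast genes summed to 6.84 and 6.84 FPKM in parent and to 15.1 and 12.6 FPKM with siLINC01534-1, nearly all of it ACTA2 and COL1A1, and DCN, LUM and PDGFRA were listed at 0 in all 6 libraries.

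RTN4, which encodes the membrane protein of the tubular ER known as Nogo, fell more than any other gene that passed. RTN4 (chr2:55199323-55339757, minus strand) was at 133 and 128 FPKM in the parent libraries and at 11.9 and 10.2 FPKM with siLINC01534-1, a level 11.8 times lower (log2 difference -3.46 ± 0.066, SE, adjusted p = 4.8e-08). With siLINC01534-2 it stayed at 147 and 143 FPKM, and the difference between the siRNAs was -3.60 ± 0.066 (adjusted p = 6.8e-08). Both siLINC01534-1 libraries thus lay far below all 4 others. MYBL2 (chr20:42295659-42345135, plus strand) encodes B-Myb, a transcription factor of the genes of late cell cycle. MYBL2 was at 65.1 and 68.8 FPKM in parent, 12.2 and 12.7 FPKM with siLINC01534-1 and 68.6 and 66.5 FPKM with siLINC01534-2 (log2 difference from parent -2.34 ± 0.05, adjusted p = 7.8e-08). Of the 6 libraries, those with siLINC01534-1 were the low ones. PRR11 and SKA2, a subunit of the kinetochore complex that holds on to microtubules, are neighbours on chromosome 17 that run in opposite directions. PRR11 fell from 20.8 and 20.01 FPKM to 3.83 and 3.72 FPKM and SKA2 from 27.9 and 24.9 FPKM to 5.97 and 6.47 FPKM, with differences of -2.16 and -1.92. With siLINC01534-2 they were at 13.9 and 13.5 and at 20.4 and 20.9 FPKM, between parent and siLINC01534-1.

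HSPD1, the chaperonin of the mitochondrial matrix, is one of the most abundant mRNAs of this group. Its level was 1095 and 1062 FPKM in parent and 299 and 298 FPKM with siLINC01534-1 (difference -1.85 ± 0.033, adjusted p = 4.8e-08), and 879 and 862 FPKM with siLINC01534-2. CCNA2, which encodes cyclin A, fell from 62.03 and 59.6 FPKM to 17.3 and 16.9 FPKM (difference -1.77 ± 0.047, adjusted p = 1.3e-07). Also among the 15 largest decreases were TMEM109 (-2.09), AMZ2 (-2.05), PARL (-1.86), CEP55 (-1.85), PCBD1 (-1.83), EIF1AX (-1.72), TOB1 (-1.70) and XPNPEP1 (-1.70). PARL is a protease of the inner mitochondrial membrane, CEP55 acts in the last step of cytokinesis and EIF1AX encodes a translation initiation factor. In each of the 15 genes the siLINC01534-1 libraries lay below both parent and both siLINC01534-2 libraries.

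**Figure D2:**
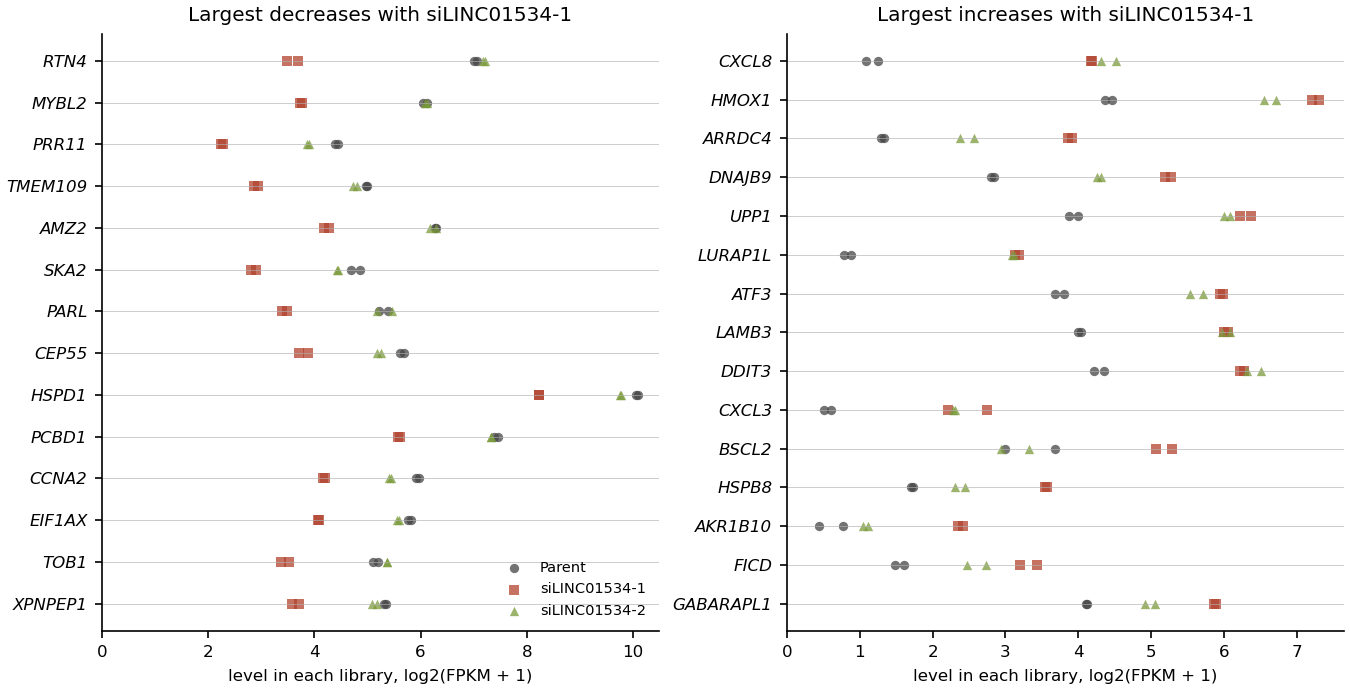
Level of each gene in each of the 6 libraries, log2(FPKM + 1), for 14 of the 15 largest decreases and the 15 largest increases with siLINC01534-1 among genes past the threshold. The decreases stand apart in the siLINC01534-1 libraries (squares) while siLINC01534-2 (triangles) lies nearer to parent (circles), and many increases are shared by both siRNAs.

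Of the 15 largest decreases, 12 had a seed match in the 3′ UTR of their canonical transcript, and of the 15 largest increases 0 had one. PARL and TOB1 had none, and EIF1AX had one in its coding part. Sites and expression were then set side by side over all 11162 tested genes with an annotated 3′ UTR of at least 10 bases. A match was present in 2942 of these, which is 26.4%. It was present in 41.3% of the 3079 genes that passed as lower and in 16.3% of the 2696 that passed as higher. Among the 292 genes that passed and had a ratio under 0.5 the share was 69.9%, and among the 208 that passed with a ratio over 2 it was 12.5%. The share rose with the size of the decrease. It was 80.8% of the 26 genes below -1.5 on the log2 scale, 77.3% of the 163 from there to -1, 55.4% of the 863 from -1 to -0.5 and 9.17% of the 120 genes above 1.

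The 8220 genes without a match had a median log2 difference of 0.032 and 22% were lower at an adjusted p under 0.05, while the 2301 genes with 1 match had a median of -0.14 and 42.4% were lower. With 2 matches (466 genes) the median was -0.17 and 44.8% were lower, and with 3 or more (175 genes) it was -0.18 and 49.1% were lower. In the siLINC01534-2 libraries, read against the same parent libraries, the medians of these 4 classes were 0.0013, 0.0091, 0.015 and 0.029. Genes with 1 match that was followed by an A, as in LINC01534 and RTN4, had a median of -0.20 over 803 genes, and those with another base there had -0.10 over 1498 genes. A match in the coding part alone went with a median of -0.036 over 713 genes. The 7 letters include the polyadenylation signal AATAAA, which lies close to the end of many mRNAs. In 5955 genes that had AATAAA after a base other than G and no match, the median was 0.035 and 21.3% were lower. Genes whose 1 match lay within 50 bases of the transcript end had a median of -0.20 over 799 genes, against -0.095 over 1502 genes with the match farther away. Long 3′ UTRs held matches more often, so the classes were also read within bins of 3′ UTR length. The medians with and without a match were -0.34 and 0.014 for 3′ UTRs under 500 bases, -0.26 and 0.020 from 500 to 999 bases, -0.18 and 0.044 from 1000 to 1999 bases, and -0.074 and 0.057 from 2000 bases. Genes with a match were lower in each of the 4 bins. Longer identity with the site in LINC01534 was rare. The 21 genes with a site of 11 or more uninterrupted bases of identity had a median of -0.37, and 13 of them were lower. FAM83F, one of the 3 with 13 such bases, was at a difference of -0.90 (adjusted p = 2.2e-05) and ELP4, another, at 0.16 (adjusted p = 0.11). Matches across genes describe these mRNAs and are not independent replicates of a condition.

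**Figure D3:**
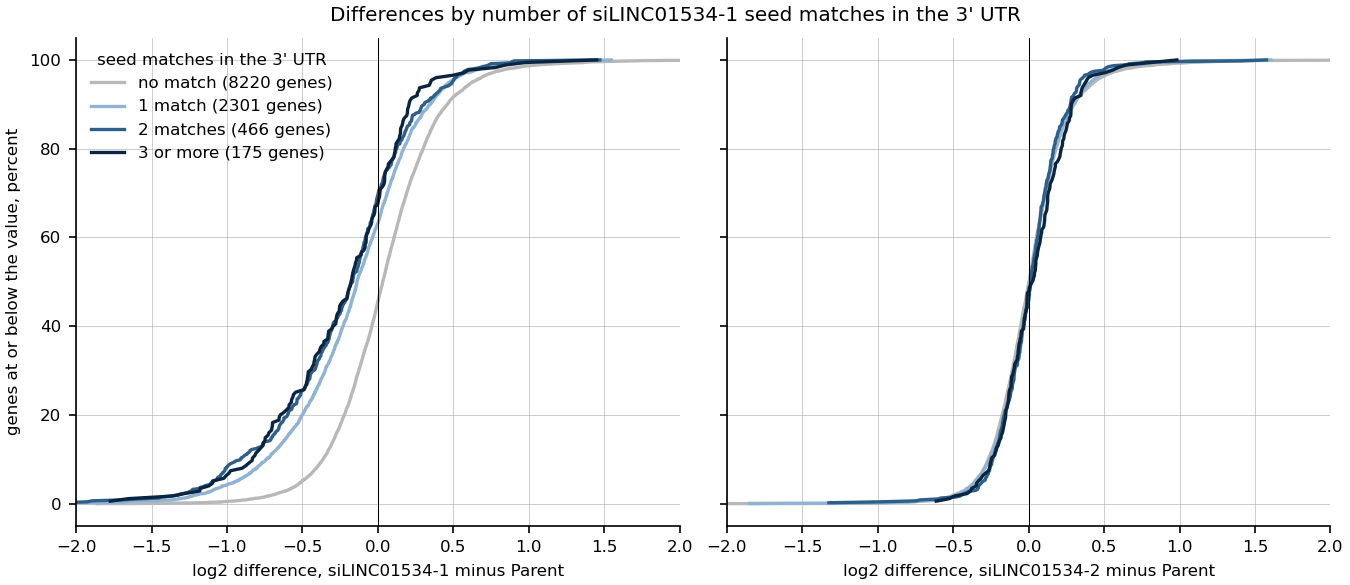
Cumulative share of genes, in percent, at or below a log2 difference from Parent, with siLINC01534-1 on the left and siLINC01534-2 on the right, for genes grouped by the number of GAATAAA matches in the 3′ UTR. With siLINC01534-1 the curve of the 8220 genes without a match has its median at 0.032 and the curves with matches lie to its left, with medians of -0.14 to -0.18, and with siLINC01534-2 the 4 medians run from 0.0013 to 0.029.

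The largest increase was that of CXCL8, which encodes the neutrophil chemokine interleukin 8. CXCL8 rose from 1.12 and 1.39 FPKM in parent to 17.2 and 17.1 FPKM with siLINC01534-1 (difference 3.01 ± 0.091, adjusted p = 1.6e-07), and was at 18.9 and 21.9 FPKM with siLINC01534-2. Both siRNAs thus stood far above parent. HMOX1, heme oxygenase, rose from 19.7 and 21 FPKM to 157 and 147 FPKM (difference 2.84 ± 0.064, adjusted p = 8.4e-08). ARRDC4, an arrestin-like regulator of glucose uptake, rose from 1.46 and 1.51 FPKM to 14.05 and 13.5 FPKM and reached 4.18 and 4.95 FPKM with siLINC01534-2. The difference between the siRNAs for ARRDC4 was 1.41 ± 0.093 (adjusted p = 1.1e-05). DNAJB9, an ER cochaperone of BiP, rose from 6.19 and 5.99 FPKM to 35.5 and 37.7 FPKM (difference 2.41 ± 0.06, adjusted p = 1e-07). UPP1 (uridine phosphorylase, 2.36), LURAP1L (2.34), ATF3 (2.22), LAMB3 (a laminin chain, 2.01), DDIT3 (1.97) and CXCL3 (1.92) followed. HSPB8 (1.84), BSCL2 (1.84), AKR1B10 (1.78), FICD (1.77) and GABARAPL1 (1.77) closed the 15. BSCL2 lies in a readthrough transcript with its neighbour and CXCL3 has near-identical relatives, so the reads of these genes could be split differently by another counter.

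ER stress genes were mostly higher. Of the 21 tested genes of the PERK and ATF4 branch, 20 were higher and 1 was lower, with a median log2 difference of 1.03, against a background of 24% higher and 26.5% lower over all genes. HSPA5, which encodes BiP, the main chaperone of the ER lumen, rose from 255 and 254 FPKM to 740.4 and 724 FPKM (difference 1.52 ± 0.044, adjusted p = 1.4e-07) and was at 695 and 757 FPKM with siLINC01534-2. DDIT3, the stress transcription factor CHOP, rose from 17.5 and 19.5 FPKM to 76.7 and 73.5 FPKM. ATF3, another stress transcription factor, rose from 11.9 and 13.02 FPKM to 62.2 and 60.6 FPKM. PPP1R15A, which recruits the eIF2α phosphatase, and SESN2, an inhibitor of mTORC1, rose by 1.55 and 1.47. The gene of PERK itself, EIF2AK3, went from 4.76 and 4.75 FPKM to 9.1 and 10.2 FPKM (difference 0.89 ± 0.094, adjusted p = 0.00011). ATF4 mRNA rose from 349.7 and 350.01 FPKM to 567 and 574 FPKM (0.70 ± 0.032, adjusted p = 1.2e-06), and was 0.58 above its level with siLINC01534-2 (adjusted p = 4.8e-06). The single lower gene of the branch, named after its value was seen, was ERO1A, an oxidase of the ER lumen, at -1.18 with siLINC01534-1 and 0.10 with siLINC01534-2. It had 3 seed matches in its 3′ UTR.

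Of 27 ER chaperones and folding enzymes, 23 were higher and 2 lower, with a median of 0.40. HYOU1, a large HSP70 of the ER lumen, rose by 1.16 and SIL1, a nucleotide exchange factor of BiP, by 0.88. The 2 lower genes were DNAJB11 (-0.47) and PDIA6 (-0.46), each with 1 seed match, and with siLINC01534-2 they stood at 0.57 and 0.17. Of 21 genes of ER-associated degradation 16 were higher and 2 lower (median 0.40). HERPUD1, a scaffold of the retrotranslocation complex, rose from 29.4 and 30.7 FPKM to 78.9 and 80.4 FPKM, and VIMP (0.84), SEL1L (0.83) and SYVN1 (0.82) rose too. Among the sensors other than PERK, ATF6 went from 9.04 and 8.89 FPKM to 11.2 and 11.1 FPKM (difference 0.29 ± 0.062, adjusted p = 0.0048). ERN1, the gene of IRE1α, was at 3.48 and 3.18 FPKM in parent and at 2.66 and 3.73 FPKM with siLINC01534-1 and did not pass (adjusted p = 0.77, 95% interval of the difference -0.40 to 0.28). Its groups overlapped. XBP1, the transcription factor downstream of IRE1α, rose from 39.05 and 37.9 FPKM to 69.4 and 69.6 FPKM. In all, 7 of 11 genes of this list were higher and 1 lower, with CREB3 (0.68) and CREB3L2 (0.50) among the higher and TRAF2 (-0.56) the lower one.

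The promoters of the ER chaperones were searched for the ER stress response element, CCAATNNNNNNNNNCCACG on either strand, which holds a CCAAT box and ends in the letters read by ATF6. From 250 bases before to 50 bases after the start (RefSeq, GRCh38.p14), 5 of 25 matched chaperone promoters held it, which is 20%, against 0.155% of 9009 promoters of tested genes and 0.0806% of all 27305 promoters. A match is a description of the letters and not a site of binding. Shown here, with the element in capitals, are the chaperone promoters that held it on the strand of the gene.
HSPA5, chr9:125241386-125241414 minus: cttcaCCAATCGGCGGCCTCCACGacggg
HSP90B1, chr12:103930211-103930239 plus: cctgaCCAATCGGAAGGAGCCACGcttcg
CANX, chr5:179698773-179698801 plus: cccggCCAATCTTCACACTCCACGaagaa
CALR and CRELD2 held it on the other strand. For the composite element of C/EBP and ATF factors, TGATGNAA, 3 of 18 promoters of the PERK and ATF4 branch (16.7%) and 3 of 11 of amino acid synthesis (27.3%) had a match, against 1.5% of promoters of tested genes. Amino acid transporters had a match in 2 of 11 promoters (18.2%) and ER chaperones in 0 of 25. The 3 of amino acid synthesis were ASNS, which rose, GOT1, which fell and held the element on the other strand, and MTHFD1L, which did not pass (difference -0.053).
ATF3, chr1:212565211-212565228 plus: caggaTGATGGAAggctg
ASNS, chr7:97872464-97872481 minus: aggcaTGATGAAActtcc
MTHFD1L, chr6:150866352-150866369 plus: ggctcTGATGCAAtcgcg

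**Figure D4:**
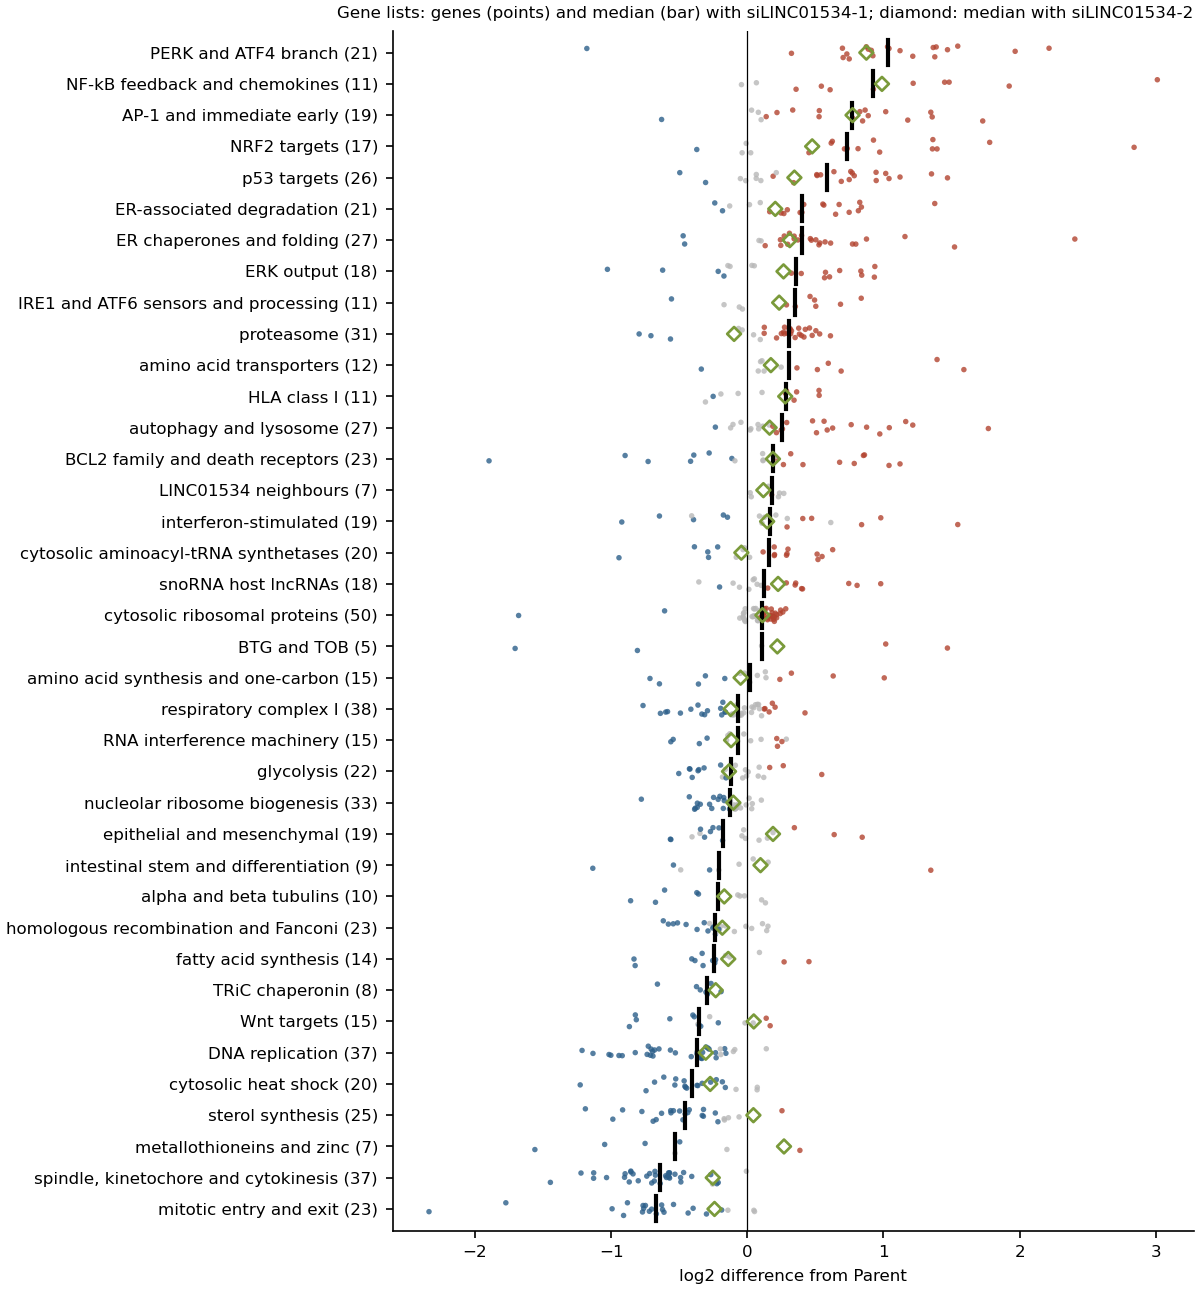
Log2 difference between siLINC01534-1 and Parent for each tested gene of 38 lists (points, coloured where the adjusted p was under 0.05), with the number tested in parentheses, the median of each list as a bar and the median with siLINC01534-2 as an open diamond. The PERK and ATF4 list has the highest median, 1.03, and mitotic entry and exit the lowest, -0.67, and the lists of the proteasome, aminoacyl-tRNA synthetases, amino acid synthesis, sterol synthesis, Wnt, intestinal stem cells, epithelial and mesenchymal genes and metallothioneins have their bar and diamond on opposite sides of 0.

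Genes of amino acid supply were mixed. ASNS, asparagine synthetase, rose from 65.9 and 69.5 FPKM to 132 and 142 FPKM (difference 1.01 ± 0.05, adjusted p = 1.7e-06) and PSAT1, of serine synthesis, by 0.63. GOT1 (-0.71) and MTHFD1 (-0.64), both with a seed match, fell. With siLINC01534-2, GOT1 stood at 0.16 and MTHFD1 at -0.34. Over the list of amino acid synthesis and one-carbon genes 4 of 15 were higher (26.7%) and 5 lower (33.3%), with a median of 0.018. These shares lay near those of all genes, 24% and 26.5%. Of 12 amino acid transporters 6 were higher and 1 lower (median 0.31). The glycine transporter SLC6A9 rose by 1.59, the cystine transporter SLC7A11 by 1.39 and SLC38A9, an arginine sensor of the lysosome, by 0.69. Cytosolic aminoacyl-tRNA synthetases, the enzymes that charge tRNAs, were higher in 11 and lower in 5 of 20 genes (median 0.16). CARS (0.63), GARS (0.55) and SARS (0.52) rose. AARS, with 2 seed matches, went the other way. It was at 77.9 and 80.3 FPKM in parent, 39.6 and 41.8 FPKM with siLINC01534-1 and 100.1 and 99.9 FPKM with siLINC01534-2, so that each siRNA moved it past the threshold in opposite directions.

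Exceptions of this kind were found with and without a seed match. Lists with a median above 0 held 46 genes with an annotated 3′ UTR that passed as lower, and 25 of these, 54.3%, had a match. The others had none, among them ID2 (-0.63), TRAF2 (-0.56) and BIRC5 (-0.90). Over all 376 members of those lists with a 3′ UTR the share was 23.9%, and over all genes that passed as lower it was 41.3%. DUSP6, a phosphatase of ERK, was a lower gene with 2 matches. It fell from 36.9 and 33.8 FPKM to 16.8 and 16.9 FPKM while DUSP5 rose from 54.1 and 54.6 FPKM to 104 and 105 FPKM and DUSP1 from 5.71 and 5.45 FPKM to 10.7 and 10.9 FPKM. EREG, an EGF receptor ligand, rose by 0.94. Of 18 genes of ERK output 10 were higher (55.6%) and 4 lower (22.2%), with a median of 0.36, where 24% and 26.5% of all genes were higher and lower.

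Cytosolic heat shock genes were mostly lower. Of 20 cytosolic heat shock genes 0 were higher and 17 lower (median -0.41, and -0.27 with siLINC01534-2). DNAJA1, an HSP40 with 1 seed match, fell from 357 and 348 FPKM to 152 and 148 FPKM and was at 326 and 332 FPKM with siLINC01534-2. HSPH1 (-0.68), FKBP4 (-0.61) and HSPA1B (-0.74) were lower too. HSPB8, a small heat shock protein that is not in the list, rose by 1.84. HSPA1B has a near-identical copy, HSPA1A, so its own value is uncertain. All 8 subunits of TRiC, the cytosolic chaperonin that folds actin and tubulin, were lower, with a median of -0.30. CCT4 fell by most, from 241 and 248 FPKM to 153 and 156 FPKM. Of 10 tubulin genes 5 were lower and 0 were higher. TUBB4B (-0.86) and TUBA1B (-0.67) were among them, and tubulin mRNAs share long stretches of sequence, so reads could be split between them.

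The proteasome separated the siRNAs. Of 31 subunits of the 20S core and the 19S regulatory particle, 24 were higher and 3 lower with siLINC01534-1, with a median of 0.31. With siLINC01534-2, against the same parent libraries, 0 were higher and 13 lower, with a median of -0.097. In the direct test between the siRNAs, 26 of 31 subunits were higher with siLINC01534-1 and 3 lower, where 21.9% of all genes were higher and 24.5% lower. PSMC4, an ATPase of the 19S base, was at 107 and 114 FPKM in parent, 166 and 172 FPKM with siLINC01534-1 and 110.03 and 99.05 FPKM with siLINC01534-2 (difference between the siRNAs 0.69 ± 0.058, adjusted p = 3.7e-05). The 3 lower subunits were PSMA7 (-0.79), PSMC6 (-0.71) and PSMA4 (-0.56), and all 3 had seed matches. PSMA7 was at 347 and 360.3 FPKM in parent, 209 and 198 FPKM with siLINC01534-1 and 312 and 319 FPKM with siLINC01534-2. The 6 subunits with a match had a median of -0.31 and the 25 without one 0.32.

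Sterol synthesis turned in the other direction. Of 25 genes 1 was higher and 20 were lower with siLINC01534-1 (median -0.46). With siLINC01534-2, 4 were higher and 6 lower (median 0.045), and 20 of 25 were lower with siLINC01534-1 than with siLINC01534-2 in the direct test. MVK, mevalonate kinase, fell from 20.9 and 19.2 FPKM to 8.09 and 8.37 FPKM (difference -1.19 ± 0.064, adjusted p = 2.5e-06). It also passed as lower with siLINC01534-2 (-0.23, adjusted p = 0.028). MSMO1, a sterol oxidase, was at 38.7 and 36.1 FPKM in parent, 20.1 and 18.6 FPKM with siLINC01534-1 and 47.6 and 50.6 FPKM with siLINC01534-2. SC5D (-0.99) and EBP (-0.77) act late in the pathway. With siLINC01534-2, SC5D stood at 0.13 and EBP at -0.25. These 4 genes each had seed matches. The 16 genes of the list without a match had a median of -0.37 and the 9 with one -0.63. Among 14 genes of fatty acid synthesis 2 were higher and 9 lower (median -0.25), with ELOVL6 (-0.83), SCD (-0.82) and FASN (-0.41) lower and ME1 (0.45), a source of NADPH, higher.

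**Figure D5:**
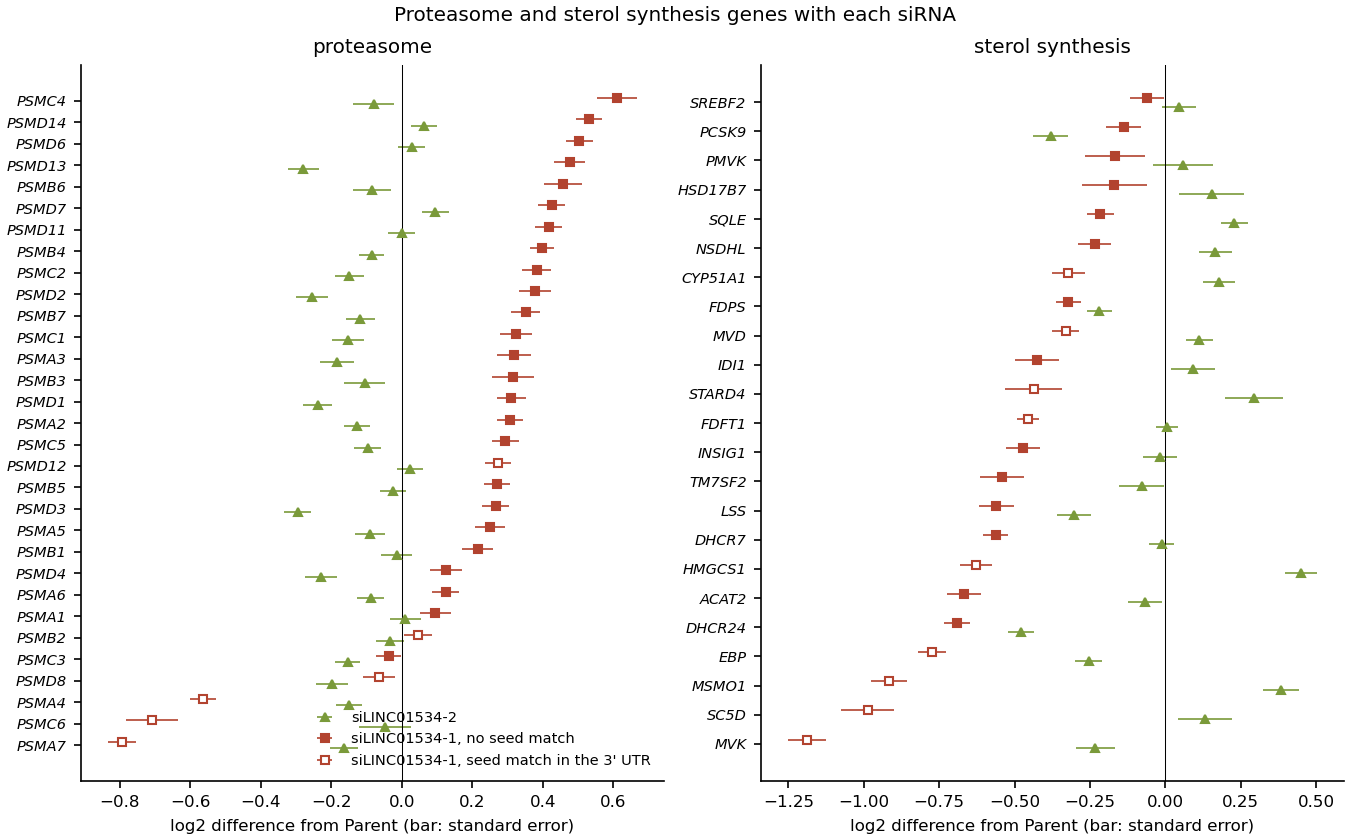
Log2 difference from Parent of each proteasome subunit (left) and of 23 of the 25 sterol synthesis genes (right) with siLINC01534-1 (squares, open where the 3′ UTR has a seed match) and with siLINC01534-2 (triangles), with the standard error from limma. Most subunits lie to the right of 0 with siLINC01534-1 and the 3 lower ones are open squares, and most sterol genes lie to the left of 0.

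Genes of the cell cycle were lower as a body. Of 23 genes of mitotic entry and exit 0 were higher and 20 were lower, with a median of -0.67, against -0.24 with siLINC01534-2. CDK1, the kinase that drives entry into mitosis, fell from 85.99 and 83.96 FPKM to 38.4 and 46.4 FPKM (difference -0.99 ± 0.079, adjusted p = 2e-05) and was at 71.8 and 67.7 FPKM with siLINC01534-2. PLK1, another mitotic kinase, fell from 106 and 111 FPKM to 55.3 and 59.5 FPKM. Of the phosphatases that activate CDK1, CDC25C went from 6.94 and 7.93 FPKM to 4.65 and 4.93 FPKM (difference -0.54 ± 0.086, adjusted p = 0.001) and CDC25B from 83.7 and 85.7 FPKM to 72.7 and 75.8 FPKM (-0.19 ± 0.041, adjusted p = 0.0055). CDC25A had a difference of 0.053 and did not pass (adjusted p = 0.52). In the direct test, 17 of the 23 were lower with siLINC01534-1 than with siLINC01534-2 and 1 was higher. Of 37 genes of the spindle, the kinetochore and cytokinesis 35 were lower and 0 higher (median -0.64, and -0.25 with siLINC01534-2). NDC80, which binds kinetochores to microtubules, fell from 25.6 and 22.3 FPKM to 7.77 and 8.55 FPKM. The kinesins KIF14 (-1.22) and KIF20A (-1.13) and SGOL2 (-1.13), which guards centromere cohesion, fell as well. Seed matches were found in 8 of these genes, with a median of -0.88, and the 29 without a match had a median of -0.59. DNA replication genes were lower in 32 and higher in 0 of 37 (median -0.37), among them MCM10 (-1.21), GINS1 (-1.13), GINS2 (-1.02) and RFC2 (-1.002). Homologous recombination and Fanconi genes were lower in 12 and higher in 0 of 23 (median -0.23), with RAD54L at -0.58.

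The promoters of these genes were read for the cell cycle homology region, TTTGAA on either strand, an element known from genes that peak in G2 and mitosis and read by the DREAM and B-Myb complexes. Of 30 matched promoters of the spindle list 21 held it, which is 70%, and of 18 promoters of mitotic entry and exit 9 held it, which is 50%, against 9.20% of promoters of tested genes and 15.4% of all promoters in the table. The other 2 lists did not share this. Of 32 promoters of DNA replication 1 held it (3.13%), and of 20 of homologous recombination and Fanconi genes 1 (5%). These shares describe promoter letters and use no expression value. A CCAAT box, CCAAT on either strand, was in 70% of the spindle promoters and 77.8% of those of mitotic entry and exit. It was in 56.3% for DNA replication, 40% for homologous recombination and Fanconi genes and 36.7% of promoters of tested genes. High shares were not particular to genes that fell. Sterol synthesis had 83.3%, and ER chaperones and the PERK and ATF4 branch, which were mostly higher, had 76% and 66.7%. The element is shown for 4 of the promoters that held it on the strand of the gene, with the 6 letters in capitals.
PLK1, chr16:23678855-23678870 plus: ccgcgTTTGAAttcgg
CCNB2, chr15:59105112-59105127 plus: cggtaTTTGAAtcctg
KIF23, chr15:69414289-69414304 plus: gcccgTTTGAAatgcg
CDCA8, chr1:37692488-37692503 plus: tggagTTTGAAttggg

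Inflammatory and immediate early genes were higher with both siRNAs. Of 11 tested genes of NF-kB feedback and chemokines 9 were higher and 0 lower (median 0.93, and 0.99 with siLINC01534-2). BIRC3, an inhibitor of apoptosis, rose from 0.619 and 0.789 FPKM to 3.57 and 3.73 FPKM and RELB, an NF-kB subunit, from 5.16 and 4.89 FPKM to 15.96 and 15.7 FPKM. The 95% interval of the difference is wide for the low BIRC3, 1.19 to 1.71. Of 19 AP-1 and immediate early genes 15 were higher and 1 lower (median 0.77). JUN rose from 8.18 and 7.92 FPKM to 28.5 and 29.5 FPKM (difference 1.73 ± 0.059, adjusted p = 3.3e-07), FOS by 1.36, KLF4 by 1.35 and NR4A1 by 1.18. In the direct test between the siRNAs, 4 AP-1 genes were higher and 6 lower with siLINC01534-1, and 2 and 4 of the NF-kB genes. NRF2 targets, which protect from oxidants, were higher in 13 and lower in 1 of 17 genes (median 0.73). GCLM, of glutathione synthesis, rose from 13.4 and 13.2 FPKM to 34.8 and 36.7 FPKM and AKR1B10, an aldo-keto reductase, from 0.356 and 0.714 FPKM to 4.37 and 4.11 FPKM. The lower one was NQO1 (-0.37), with 1 seed match, and it stood at 0.23 with siLINC01534-2.

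Genes that p53 transcribes were higher in 18 and lower in 2 of 26 (median 0.59, and 0.35 with siLINC01534-2). GADD45A rose from 32.1 and 32.5 FPKM to 81.8 and 86.5 FPKM. BBC3, the proapoptotic protein PUMA, rose by 1.12 and TNFRSF10B, the TRAIL receptor DR5, by 1.04. The list shares these 2 genes, SESN2 and GDF15 with the PERK and ATF4 branch. Among 23 apoptosis regulators 11 were higher (47.8%) and 7 lower (30.4%), with a median of 0.19, where 24% and 26.5% of all genes were higher and lower. BIRC5, the gene of the apoptosis inhibitor survivin, fell from 93.5 and 93.6 FPKM to 49.9 and 49.7 FPKM. Of 27 genes of autophagy and the lysosome 17 were higher and 1 lower (median 0.26). GABARAPL1, an ATG8 family member of autophagosomes, rose from 16.3 and 16.2 FPKM to 58.6 and 57.3 FPKM and was at 29.1 and 32.1 FPKM with siLINC01534-2 (difference between the siRNAs 0.90 ± 0.057, adjusted p = 8.8e-06). SQSTM1, the cargo receptor p62, rose from 109.9 and 114 FPKM to 266 and 256 FPKM. CTSD, a lysosomal protease, rose by 1.16 and WIPI1 by 1.04.

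Genes of Wnt signalling separated the siRNAs as well. Of 15 tested, 2 were higher and 9 lower with siLINC01534-1 (median -0.35), and 2 were higher and 1 lower with siLINC01534-2 (median 0.048). CTNNB1, which encodes β-catenin, fell from 143 and 141 FPKM to 92.4 and 98.3 FPKM and was at 147 and 147 FPKM with siLINC01534-2. TCF7 (-0.87), TCF7L2 (-0.81) and the ligand BMP4 (-0.82) fell. CTNNB1, TCF7 and TCF7L2 had 1 seed match each and BMP4 had none. Of the stem cell markers, CD44 was at 122 and 122 FPKM in parent and 124 and 127 FPKM with siLINC01534-1 and did not pass (adjusted p = 0.34, 95% interval -0.038 to 0.12). PROM1, the gene of CD133, was at 11.96 and 12.9 FPKM in parent and 12.4 and 11.4 FPKM with siLINC01534-1 and did not pass (adjusted p = 0.49, interval -0.22 to 0.097). BMI1 was at 12.7 and 8.98 FPKM in parent and 7.73 and 6.95 FPKM with siLINC01534-1 (adjusted p = 0.066, interval -0.94 to -0.042), and passed as lower without parent replicate 2 (adjusted p = 0.031). DCLK1 and LGR5 lay below the mean of 1 FPKM, with DCLK1 at 0.282 and 0.207 FPKM in parent and 0.544 and 0.405 FPKM with siLINC01534-1. CDX2, a transcription factor of intestinal epithelium, was at 7.83 and 6.89 FPKM in parent and 9.06 and 7.56 FPKM with siLINC01534-1, so that its groups overlapped (adjusted p = 0.29, interval -0.10 to 0.41). CA2, carbonic anhydrase of differentiated colon epithelium, fell from 22.5 and 19.3 FPKM to 8.93 and 8.96 FPKM. It had 1 seed match, and with siLINC01534-2 it was at 19.6 and 19.2 FPKM. Of 9 tested genes of the intestinal stem and differentiation list 1 was higher (11.1%) and 3 lower (33.3%). Of all genes 24% were higher and 26.5% lower. Junction and mesenchymal genes were higher in 3 (15.8%) and lower in 8 (42.1%) of 19 (median -0.18, and 0.19 with siLINC01534-2). CLDN4, a tight junction protein, rose by 0.64 and the splicing factor ESRP1 fell from 36.1 and 35.3 FPKM to 24.6 and 23.1 FPKM. ESRP1 had 1 seed match and was at 45.7 and 50.9 FPKM with siLINC01534-2. GAPDH, often used as a reference, was at 4431 and 4604 FPKM and 4823 and 4728 FPKM (difference 0.08 ± 0.034, adjusted p = 0.08).

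Metallothioneins, small proteins that bind zinc and copper, were lower. MT1E was at 456 and 506 FPKM in parent, 158 and 167 FPKM with siLINC01534-1 and 478 and 499.7 FPKM with siLINC01534-2 (difference from parent -1.56 ± 0.053, adjusted p = 3.3e-07). MT1X (-1.05) and MT2A (-0.75) fell too, and so did MTF1 (-0.50), the zinc-sensing factor that transcribes them, which had 2 seed matches. With siLINC01534-2 the last 3 were higher than in parent, by 0.27, 0.24 and 0.27. Of 7 tested genes of this list 1 was higher and 4 lower, and 6 of 7 were lower with siLINC01534-1 than with siLINC01534-2. Metallothionein genes are near-identical copies, so the share of each is uncertain.

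Most genes of translation moved by small amounts. Of 50 cytosolic ribosomal protein genes 26 were higher and 2 lower, with a median of only 0.11 with each siRNA. The 2 lower ones were RPL22, from 234 and 230.5 FPKM to 73.6 and 70.2 FPKM, and RPL10A, from 1196 and 1259 FPKM to 808 and 802 FPKM. Each had 1 seed match, and with siLINC01534-2 they were at 243 and 235 and 1349 and 1360.1 FPKM. Ribosomal protein genes have many processed pseudogenes, so small differences among them are uncertain. Of 33 genes of nucleolar ribosome biogenesis 17 were lower and 0 higher (median -0.13), led by GNL3 (-0.78), a nucleolar GTPase. Of 18 genes that host snoRNAs, lncRNAs apart from the protein-coding TAF1D, 9 were higher and 1 lower (median 0.13). GAS5 rose from 239.96 and 263 FPKM to 518 and 476 FPKM and ZFAS1 from 241 and 252 FPKM to 442 and 421 FPKM. BTG1 (1.47) and BTG2 (1.02), antiproliferative adaptors of mRNA deadenylation, rose, and TOB1 (-1.70) and BTG3 (-0.81, and -1.59 with siLINC01534-2) of the same family fell. Respiratory complex I subunits were higher in 6 (15.8%) and lower in 15 (39.5%) of 38 (median -0.066), with NDUFB6 (-0.77) and NDUFB10 (-0.64) lowest. Glycolysis genes were higher in 3 (13.6%) and lower in 9 (40.9%) of 22 (median -0.12), where 24% and 26.5% of all genes were higher and lower. LDHA, lactate dehydrogenase, fell from 632 and 642 FPKM to 449.9 and 448 FPKM.

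Of 19 tested interferon-stimulated genes 6 were higher (31.6%) and 5 lower (26.3%), with a median of 0.16, where 24% and 26.5% of all genes were higher and lower. IFIH1, the RNA sensor MDA5, went from 2.53 and 1.84 FPKM to 4.27 and 5.097 FPKM and ISG20 from 0.859 and 0.575 FPKM to 4.199 and 3.799 FPKM. USP18, with 1 seed match, fell from 4.43 and 4.99 FPKM to 2.09 and 1.94 FPKM. HLA class I genes were higher in 6 and lower in 1 of 11 (median 0.28 with each siRNA), with HLA-B at 0.53. Of the RNA interference machinery 3 of 15 were higher (20%) and 4 lower (26.7%), shares near those of all genes. AGO1, an Argonaute with 3 seed matches in a 3′ UTR of 10925 bases, fell from 15.7 and 14.7 FPKM to 10.3 and 9.92 FPKM. With siLINC01534-2 it was at 12.1 and 12.7 FPKM and also passed as lower (-0.27, adjusted p = 0.017). TARBP2, a partner of Dicer, had a log2 difference of -0.56. Zinc finger genes around LINC01534 on chromosome 19 were higher in 1 and lower in 0 of 7 tested, and the one that passed, ZNF146, had a difference of 0.18 (adjusted p = 0.01), which did not pass without parent replicate 2 (0.073) or without siLINC01534-1 replicate 2 (0.056).

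The direct test between the siRNAs found 5555 of 11977 genes (46.4%) past the threshold. NEAT1, the lncRNA that builds paraspeckles, was at 64.4 and 62.5 FPKM in parent, 196 and 187 FPKM with siLINC01534-1 and 59.6 and 63.7 FPKM with siLINC01534-2 (difference between the siRNAs 1.62 ± 0.047, adjusted p = 3.2e-07). FAM219A rose from 8.19 and 8.11 FPKM to 23.5 and 22.6 FPKM and was at 8.84 and 8.62 FPKM with siLINC01534-2. For others siLINC01534-2 lay on the far side of parent, as PCYOX1L was at 6.62 and 7.61 FPKM in parent, 10.9 and 10.5 FPKM with siLINC01534-1 and 2.298 and 2.66 FPKM with siLINC01534-2. HEBP2, HIST1H2BK, KLHDC3 and UCA1 were of that kind, with differences from parent of 0.19, 0.19, 0.25 and 0.31 with siLINC01534-1 and of -1.32, -1.29, -1.004 and -0.90 with siLINC01534-2. The small increases of the first 3 from parent were lost without parent replicate 1 (adjusted p = 0.12, 0.26 and 0.059), and those of HEBP2 and HIST1H2BK also without siLINC01534-1 replicate 1 (0.14 and 0.13), as was that of HIST1H2BK without replicate 2 (0.14). DAZAP2, with 2 seed matches, was at 98.1 and 98.5 FPKM in parent, 32.3 and 31.6 FPKM with siLINC01534-1 and 112 and 108 FPKM with siLINC01534-2. NCS1, a neuronal calcium sensor with 3 matches, was at 26.1 and 27.6, 8.096 and 7.61 and 29.6 and 27.2 FPKM in the same order. Of the 10 genes with the largest gap downwards, among them RTN4, MYBL2, AMZ2, TOB1, PARL, TMEM109, DAZAP2, PCBD1 and NCS1, 8 had a seed match in the 3′ UTR.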

How the data were processed

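The labels gave 3 groups of 2 HCT116 libraries, Parent, siLINC01534-1 and siLINC01534-2, while the study's methods speak of 3 cultures for its sequencing. The authors isolated total RNA (an RNeasy kit per the labels, miRNeasy in the methods), made stranded mRNA libraries, sequenced single-end reads and used hg19 with TopHat2 2.0.13 and Bowtie2 2.2.3, with SAMtools 0.1.19, and deposited FPKM per gene symbol from Cufflinks 2.2.1. The annotation behind the symbols is not given in the sources used here. The deposited FPKM carry no read counts.

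log2(FPKM + 1) was fitted with limma 3.58.1 (R 4.3.3, eBayes with a trend) over all 6 libraries, for genes with a mean of at least 1 FPKM, without short RNA symbols. A pseudocount of 1 understates the change of low genes. Differences, standard errors (± after a log2 difference) and Benjamini-Hochberg p-values, two-sided with a threshold of 0.05, come from this fit. Ratios are of group means of FPKM. On simulated data with 200 of 11977 genes changed by 1 on the log2 scale, checked with the same fit, most were recovered. The simulated noise was normal with the fitted spread, and the median size among the genes that passed was only 0.39. This check of the fit therefore does not test the calls reported here. Low genes moved in steps of 1 read in 80.3% of 3730 genes (tolerance 2%), and depth was estimated from these steps and the lengths, less 200 bases, of single-transcript genes, so that 1 read is the limit of a level. Counting noise between libraries of a group was exceeded, with a mean chi-square per gene of 1.63 to 1.76.

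The siRNA sequence was taken from the study's methods only to find its site and its seed. Seed matches were counted in GENCODE canonical transcripts on GRCh37, for 11162 genes, and promoters are from RefSeq (GRCh38.p14). Genes named are the 15 largest increases and decreases that passed, up to 4 genes a list with the largest change, genes the paper names, and the 10 largest in each direction that also passed between the siRNAs. ERO1A, DNAJB11, PDIA6, NQO1, CDC25A, MTHFD1L, FAM83F, ELP4 and VTRNA1-2 were added to the names once their values had been seen. A few genes that the rule or the lists hold are not reported here and not drawn, and counts include them. The members, lists and tests were chosen with earlier results of these data known. Python 3.11.15, pandas 2.3.3 and numpy 2.4.6 were used.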

Additional observations from a re-analysis of the deposited data

Results flagged for a closer look

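Groups of 2 libraries are too small for a test of single outlying libraries. Some named genes moved past the threshold in opposite directions with the 2 siRNAs, each against the same parent libraries, and the difference between the siRNAs passed as well. The log2 difference, siLINC01534-1 minus siLINC01534-2, was above 0 for PCYOX1L (1.75), HEBP2 (1.52), HIST1H2BK (1.48), KLHDC3 (1.26) and UCA1 (1.21). It was below 0 for TOB1 (-1.93), DAZAP2 (-1.75), MT1X (-1.32), MSMO1 (-1.30), AARS (-1.28), MT2A (-0.99), ESRP1 (-0.99), MTF1 (-0.77), RPL10A (-0.75) and KRT19 (-0.39). The rise of HIST1H2BK from parent with siLINC01534-1 (0.19) depended on the setting. It did not pass in limma without a trend (adjusted p = 0.081), with short RNA symbols kept (0.071) or without the filter on low values (0.094).

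The short RNA symbols set aside held some differences as well. Of the 226 kept in an otherwise equal fit, 13 were higher and 17 lower with siLINC01534-1. In the fit without them, 24% of the 11977 genes tested were higher and 26.5% lower. In genes shorter than a fragment 1 read is worth many FPKM, so these levels are not set beside those of longer genes.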

How the results depend on the processing

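The 6041 genes that passed were 6029 with a pseudocount of 0.1, 6058 with 5, 5481 without the filter on low values, 5211 with a mean FPKM of at least 5, 5654 with short RNA symbols kept, 6022 with each library centred on its median, 5780 without a trend and 5964 with only the 4 libraries of the comparison. Leaving out 1 library gave 4798 to 5968, and a lone library was then assumed to vary like the other groups. Genes that differed between the siRNAs ranged from 4827 to 5571 under the other settings and from 4214 to 5387 without 1 library. Genes past 2-fold numbered 580, and 2717 without the filter, 324 with a mean FPKM of at least 5 and 332 for the ratio of means of FPKM + 1, where low genes are held back by construction. Without 1 library there were 629 to 638. Of 38 lists, 21 had a median above 0 under every setting run, but sizes moved. With the marker lists, 131 of 628 recomputed list medians moved by more than the spread between replicates, among them 26 of 42 with a pseudocount of 5 and 20 of 42 without Parent replicate 1.

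A replicate block in the fit left 5917 genes past the threshold against parent and 5338 between the siRNAs. Same-numbered libraries had correlations of their deviations of 0.11 for Parent with siLINC01534-1, -0.064 for Parent with siLINC01534-2 and -0.0047 for the siRNAs, so they share a number and no pairing was assumed.

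Of the named genes, ERN1 ranged from -0.24 to 0.13 with 1 library left out and was above 0 without siLINC01534-1 replicate 1, with an adjusted p of 0.54. BMI1 passed in 5 settings, with adjusted p from 0.024 to 0.045. A loss of the call was seen in 23 of the combinations of a named gene and a setting, and 2776 kept direction and side of the threshold.

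LINC01534 itself had 2 reads or fewer in each library, so the size of its knockdown could not be read from these data. The paper reports, from qRT-PCR of HCT116 cells, that both siRNAs lowered LINC01534 against a negative control siRNA. Transfection, the target and other transcripts bound by the siRNA cannot be told apart in a difference from parent.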
